A study of Capra hircus with 9 samples.

Results

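The miR-29 family was described here in the submandibular gland of goats at 3 ages. Its members were chosen by name: every entry of the deposited table whose integer directly after "miR-" is exactly 29, with any letter, arm or ending. This gave 8 of 2189 entries, of which 6 carry goat names (chi-miR-29a, b and c, each with a 3p and a 5p arm) and the remaining members, miR-29-y and miR-29-x, carry names without a species. The glands came from 9 healthy female Lubo goats, 3 each at 1, 12 and 24 months of age, all kept alike and with no treatment named, and each goat gave 1 small RNA library. RNA came from gland tissue, so every value is a mixture over the cells it holds. Libraries keep the numbers of their labels: 1, 2 and 3 (1 month), 3, 4 and 5 (12 months), and 2, 3 and 5 (24 months).

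MicroRNAs are short RNAs that guide a silencing complex to messenger RNAs, mainly by pairing through the seed, bases 2 to 8. Each hairpin precursor can yield a 5p and a 3p strand, and usually the cell keeps mostly 1 of them. The miR-29 family is known for restraining collagens, elastin and other matrix genes, and also for targeting DNA methyltransferases. In mammals it is made from a pair of clusters, in which miR-29a lies beside a copy of miR-29b and miR-29c lies beside another copy of miR-29b. The RefSeq gene table for goat (assembly ARS1.2) lists 3 genes of the family, and MIR29B and MIR29C stand on the same chromosome with 1 other gene between them, while MIR29A stands on another. The build used for the deposited counts is not given in the sources used here, so no positions are printed.

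The deposited sequences show which members could act through the same seed. They are written 5′ to 3′ with the seed in capitals, 3p arms first:
chi-miR-29a-3p: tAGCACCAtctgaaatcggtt
miR-29-y: tAGCACCAtctgaaatcggttaa
chi-miR-29b-3p: tAGCACCAtttgaaatcagt
chi-miR-29c-3p: tAGCACCAtttgaaattggtt
chi-miR-29a-5p: aCTGATTTcttttggtgttca
chi-miR-29b-5p: cTGGTTTCacatggtggcttaga
miR-29-x: gCTGGTTTcatatggtggtttaga
chi-miR-29c-5p: tGACCGATttctcctggtgttca

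All 4 3p members shared the seed AGCACCA, and the 4 5p members had a different seed each. Counted from 1 at the 5′ end of chi-miR-29a-3p, chi-miR-29b-3p differed by C10T and G18A, and chi-miR-29c-3p by C10T and C17T. The entire chi-miR-29a-3p sequence opens miR-29-y, which carries 2 more bases at its 3′ end. By sequence the pair is read here as a shorter and a longer form, and the source of the added bases was not checked. The 5p members were less alike. chi-miR-29b-5p and miR-29-x matched at 21 of 23 aligned bases, differing by C10T and C18T counted on chi-miR-29b-5p, and miR-29-x started 1 base earlier. The table does not name the hairpin from which miR-29-x comes. Entries this alike also depend on how reads were assigned between them.

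Libraries held 8288492 to 13277448 counts. Levels are given as CPM, the count relative to the library's total after edgeR's trimmed-mean (TMM) scaling between libraries. Means carry the SD of 3 goats, and a read spans a whole mature miRNA, so no length correction applies. Changes are log2 fold changes from edgeR's quasi-likelihood F test on all 9 libraries, with Benjamini-Hochberg adjustment over 937 tested entries and a threshold of 0.05. Replicates are separate goats. At 1 month a library stood apart: library 2 had 12.7% of its counts on a list of leukocyte miRNAs and 0.875% on a list of epithelial miRNAs, against 3.73% and 5.78%, and 5.82% and 3.97%, in libraries 1 and 3. Results with and without that library are given.

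The miR-29 family was low at 1 month and higher in every goat at 12 and 24 months. Its members together took 0.167%, 0.161% and 0.201% of the counts in 1-month libraries 1, 2 and 3. The shares were 0.613%, 0.550% and 0.594% in 12-month libraries 3, 4 and 5, and 0.664%, 0.570% and 0.671% in 24-month libraries 2, 3 and 5. The 1-month values lay below all 6 later ones, and the later ages overlapped. On the log2 scale the share rose by 1.74 from 1 to 12 months, a 3.33-fold difference, and differed by 0.11 between 12 and 24 months (exact permutation test over the 3 ages, p = 0.0107, adjusted p = 0.0179 over 5 quantities). With 3 goats against 3, the exact two-sided p for 12 against 1 month was 0.1, the smallest that design allows, and its adjusted value over 15 tests was 0.188. Wilson 95% intervals of these shares reached at most 0.00531 percentage points to either side and cover counting error only, far less than the spread between goats. Without 1-month library 2 the share was higher by 1.67 at 12 months and 1.79 at 24 months. In whole gland, more of the cells that hold miR-29 and more miR-29 per cell cannot be told apart.

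Of the 8 members, 7 passed the filter on low counts and 5 of them rose between 1 and 12 months, while 0 fell. Over all tested entries 5.98% rose and 19.2% changed in either direction. These 5 members were also past the threshold at 24 months against 1 month, where 8.75% of all entries rose and 26.3% changed, and in the test for any difference between the 3 ages, where 20.5% of all entries passed. By an unadjusted p under 0.05 the members that rose numbered 5 at 12 months and 6 at 24 months, and 0 fell. Of all 937 entries, 374 at 12 months and 399 at 24 months were under that p in either direction. DESeq2 and limma voom each called 5 higher and 0 lower in both comparisons. Over all 937 entries DESeq2 called 115 higher at 12 months and 153 at 24 months, and limma voom 98 and 114. Comparisons of 12 and of 24 months with 1 month share the same 1-month goats and are not independent. The median log2 fold change of the 7 tested members was 1.88 at 12 months, against −0.017 over all entries. The ages 1 and 12 months did not overlap for 5 of 7 members, all higher at 12 months, against 26.3% of all entries higher and 48.5% in either direction. For 24 months against 1 month this held for 6 of 7 members, against 21.3% of all entries higher and 47.2% in either direction. The sixth, chi-miR-29a-5p, overlapped without TMM scaling (1.30 CPM in 24-month library 2 and 1.63 CPM in 1-month library 3).

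**Figure D1:**
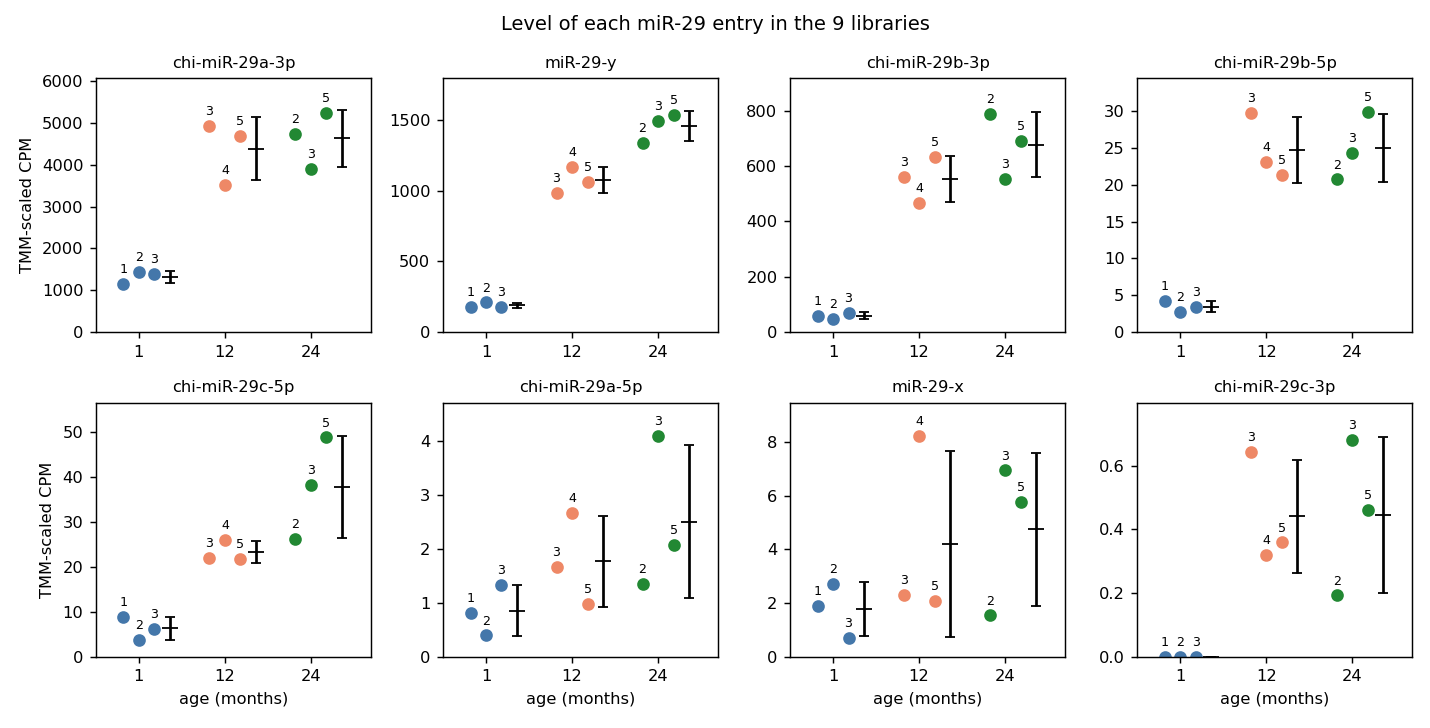
TMM-scaled CPM (y axis, each panel on its own scale from 0) of the 8 miR-29 entries against age in months, with 1 numbered point per library and the mean ± SD of 3 goats beside each group. In the upper 4 panels and that of chi-miR-29c-5p all 1-month libraries sit below all later ones. The 3 low entries at lower right hold few counts. Of these, chi-miR-29a-5p and miR-29-x scatter widely, and chi-miR-29c-3p is at 0 in each 1-month library and above it in all later ones.

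chi-miR-29a-3p, the most abundant entry of the family in this gland, stood at 1160, 1432 and 1389 CPM in 1-month libraries 1, 2 and 3. At 12 months it stood at 4935, 3527 and 4685 CPM in libraries 3, 4 and 5, and at 24 months at 4742, 3909 and 5244 CPM in libraries 2, 3 and 5. Later libraries were thus all above those at 1 month, and the later ages overlapped. By rank of the mean it went from 84th of all entries at 1 month to 38th at 12 months and 40th at 24 months. It rose by 1.72 (SE 0.31, edgeR adjusted p = 0.00473) at 12 months and by 1.80 (SE 0.31, adjusted p = 0.00341) at 24 months. The call at 12 months was lost without 12-month library 5 (1.29, adjusted p = 0.0512).

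miR-29-y, the form of chi-miR-29a-3p with 2 further bases, had the narrowest groups of the family. In 1-month libraries 1, 2 and 3 it held 177, 210 and 180 CPM. Later goats gave 987, 1170 and 1064 CPM (12 months) and 1335, 1495 and 1534 CPM (24 months). All 3 ages were separate from each other, with coefficients of variation of 9.70%, 8.57% and 7.25%. The rise was 2.51 (SE 0.30, adjusted p = 0.0011) at 12 months and 2.95 (SE 0.31, adjusted p = 0.000553) at 24 months. Although the 24-month libraries lay above those at 12 months, the difference of 0.44 did not pass (edgeR adjusted p = 0.998, 95% interval −0.19 to 1.07), and among all entries 6.08% were higher without overlap in that comparison and 9.82% in either direction.

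chi-miR-29b-3p, which carries the same seed, had the smallest p of all 937 entries at 12 and at 24 months against 1 month. It stood at 59.8, 46.6 and 71.0 CPM in 1-month libraries 1, 2 and 3. At 12 months the values were 561, 467 and 634 CPM, and 24-month libraries held 789, 553 and 690 CPM. All later libraries were far above the 1-month ones, and the later ages overlapped. By mean level it moved from rank 286 to rank 116 and then 108. The rise was 3.23 (SE 0.35, adjusted p = 0.0011) at 12 months and 3.52 (SE 0.36, adjusted p = 0.000553) at 24 months.

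The 5p strands, which are usually degraded as passengers, were scarcer than the 3p arms of miR-29a and miR-29b. chi-miR-29b-5p stood at 4.26, 2.78 and 3.39 CPM in 1-month libraries 1, 2 and 3, from 52, 35 and 48 counts. Its 12-month libraries gave 29.7, 23.1 and 21.3 CPM, and its 24-month libraries 20.7, 24.3 and 29.9 CPM. It rose by 2.83 (SE 0.39, adjusted p = 0.00151) at 12 months and by 2.84 (SE 0.39, adjusted p = 0.00146) at 24 months, against 3.23 and 3.52 for its 3p arm. At 12 and 24 months its libraries overlapped.

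chi-miR-29c-5p held 8.92, 3.82 and 6.14 CPM in 1-month libraries 1, 2 and 3. The 12-month libraries gave 22.01, 26.02 and 21.7 CPM, and the 24-month libraries 26.2, 38.2 and 48.7 CPM. Its 3 ages did not overlap on this scale. For 24 against 12 months, 6.08% of all entries were higher without overlap and 9.82% in either direction. Without TMM scaling 24-month library 2 (25.2 CPM) lay below 12-month library 4 (27.4 CPM), so the separation of 12 from 24 months depends on the scaling. The rise was 1.88 (SE 0.43, adjusted p = 0.0138) at 12 months and 2.58 (SE 0.44, adjusted p = 0.00341) at 24 months. At 12 months the call was lost on leaving out 12-month library 3 (adjusted p = 0.0759), 4 (0.0567) or 5 (0.0839). The difference of 0.70 between 12 and 24 months did not pass (edgeR adjusted p = 0.998, 95% interval −0.22 to 1.62).

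The remaining 5p members had few counts and did not pass in any comparison. chi-miR-29a-5p held 10, 5 and 19 counts in 1-month libraries 1, 2 and 3, then 13, 25 and 11 in 12-month libraries 3, 4 and 5, and 14, 36 and 18 in 24-month libraries 2, 3 and 5. Its log2 fold change was 1.04 (edgeR adjusted p = 0.284, 95% interval −0.48 to 2.56) at 12 months and 1.53 (adjusted p = 0.115, 0.01 to 3.05) at 24 months. miR-29-x held 23, 34 and 10 counts in the 1-month libraries, then 18, 77 and 23 (12 months) and 16, 61 and 50 (24 months). Its log2 fold change was 1.25 (adjusted p = 0.245, −0.45 to 2.94) at 12 months and 1.42 (adjusted p = 0.184, −0.28 to 3.12) at 24 months. Both were highest in 12-month library 4 and 24-month library 3 of their ages. A difference between these members and chi-miR-29b-5p or chi-miR-29c-5p was not tested.

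chi-miR-29c-3p was not tested because its counts were below the filter. It had 0 counts in each 1-month library, which allows up to 3 counts in each. At 12 months it had 5, 3 and 4 counts in libraries 3, 4 and 5, and at 24 months 2, 6 and 4 in libraries 2, 3 and 5. Over the 9 libraries chi-miR-29c was the miRNA of the family whose listed 5p arm exceeded its 3p arm: at 24 months 1031 counts fell on the 5p and 12 on the 3p arm. For miR-29a the 3p arm with its longer form exceeded the 5p arm by 1741, 3145 and 2492 times at 1, 12 and 24 months. chi-miR-29b-3p exceeded chi-miR-29b-5p and miR-29-x together by 11.5, 19.7 and 23.3 times. There miR-29-x was counted with miR-29b for its likeness to chi-miR-29b-5p, although its hairpin is not named. No entry of the table holds the listed chi-miR-29c-3p sequence with the change T17C, the base that chi-miR-29a-3p and chi-miR-29b-3p carry there, so reads of such a form have no entry of their own.

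**Figure D2:**
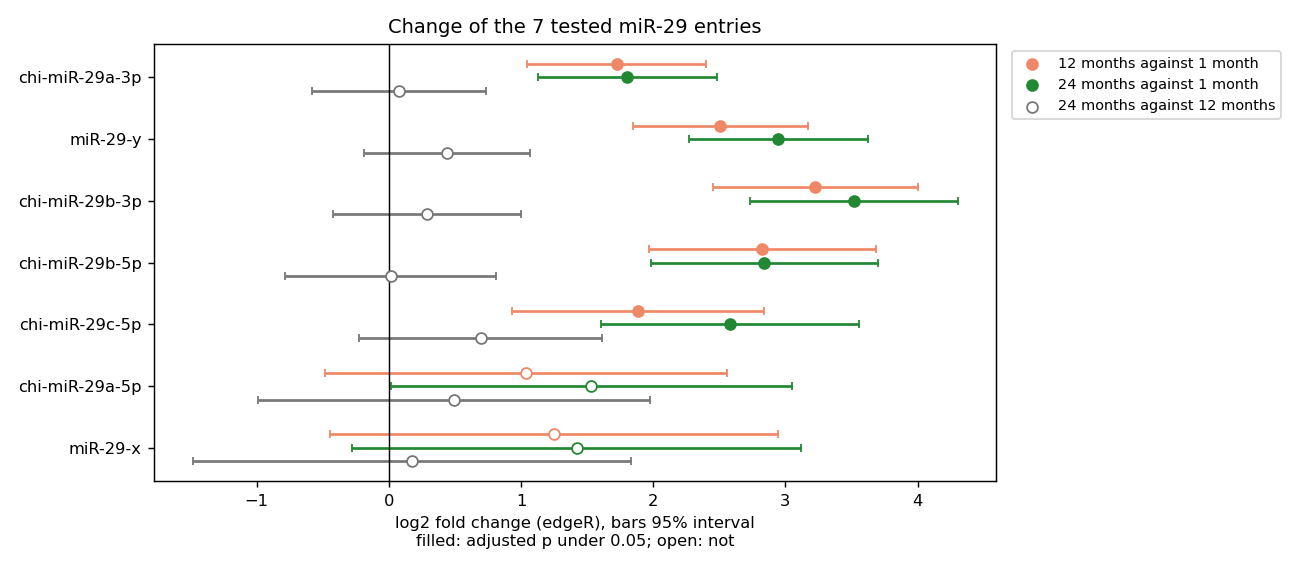
Log2 fold change (x axis) of the 7 tested miR-29 entries in 3 comparisons, with bars for the 95% interval of edgeR's fit, filled points past an adjusted p of 0.05 and open points not. Against 1 month the 5 entries with filled points lie to the right of 0. At 24 months the interval of chi-miR-29a-5p also excludes 0, though its adjusted p does not pass, and between 12 and 24 months all 7 intervals include 0.

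Between 12 and 24 months 0 of 7 members passed by edgeR, where 0% of all entries passed. The count at an unadjusted p under 0.05 was also 0 for the members, against 40 of 937 entries, and DESeq2 and limma voom each called 0 members. Values ranged from 0.016 for chi-miR-29b-5p to 0.70 for chi-miR-29c-5p. The intervals exclude a doubling for chi-miR-29a-3p (−0.58 to 0.74) and chi-miR-29b-5p (−0.78 to 0.81) and barely include it for chi-miR-29b-3p (−0.42 to 1.00). The signs of chi-miR-29a-3p and chi-miR-29b-5p turned under some settings, so no direction is given for them.

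Leaving out 1-month library 2 changed no call of the family against 1 month. At 12 months the log2 fold changes without it were 1.76 for chi-miR-29a-3p, 2.57 for miR-29-y, 3.06 for chi-miR-29b-3p, 2.67 for chi-miR-29b-5p and 1.60 for chi-miR-29c-5p (edgeR adjusted p from 0.0001 to 0.0126). At 24 months they were 1.84, 3.01, 3.35, 2.69 and 2.30 in the same order. That library held the lowest 1-month level of chi-miR-29b-3p, chi-miR-29b-5p and chi-miR-29c-5p, with or without TMM scaling. For chi-miR-29a-3p and miR-29-y it was the highest with TMM scaling and the lowest without it. The coefficients of variation at 1 month were 11.03% for chi-miR-29a-3p, 9.70% for miR-29-y and 20.6% for chi-miR-29b-3p, against a median of 49.5% over 535 tested entries with a mean of at least 10 CPM at some age. Those 535 entries were not matched to the members by level, and library 2 is included. Among the 5 members that rose, chi-miR-29c-5p had the widest spread, at 40.6%. Between 12 and 24 months 0 members passed without that library, with edgeR adjusted p of 0.754 for chi-miR-29c-5p and 0.682 for miR-29-y.

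**Figure D3:**
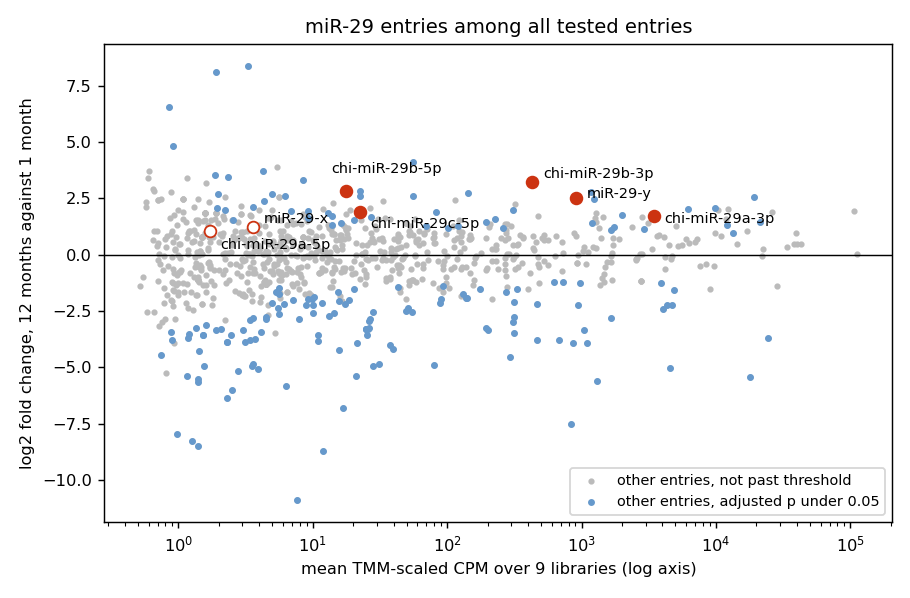
Log2 fold change from 1 to 12 months (y axis) against mean TMM-scaled CPM over 9 libraries (x axis, log scale) for 937 tested entries, with the 7 tested miR-29 entries as large red points, filled where the adjusted p is under 0.05. The 5 filled points lie between 1.72 and 3.23.

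The balance within the family also changed with age. Ratios of counts within a library do not depend on library scaling. The ratio of chi-miR-29b-3p to chi-miR-29a-3p was 0.0516, 0.0326 and 0.0511 in 1-month libraries 1, 2 and 3. It was 0.114, 0.132 and 0.135 in 12-month libraries 3, 4 and 5, with 0.166, 0.142 and 0.132 in 24-month libraries 2, 3 and 5. Every later library was above every 1-month library, and the later ages overlapped. The ratio was higher by 1.52 (log2) at 12 months and by 1.72 at 24 months (exact permutation test over 3 ages, p = 0.0107, adjusted p = 0.0179; exact p = 0.1 and adjusted p = 0.188 for either age against 1 month). Thus the counts of chi-miR-29b-3p rose more than those of chi-miR-29a-3p, by 2.87-fold at 12 months. The ratio also depends on how reads were assigned between entries this alike, which was not tested. With the longer forms added to both, a setting chosen after seeing the data, the difference at 12 months was 1.39. Without 1-month library 2, whose ratio was the lowest, the difference in the ratio of chi-miR-29b-3p to chi-miR-29a-3p was 1.30 at 12 months and 1.504 at 24 months.

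The longer form miR-29-y gained on chi-miR-29a-3p as well. Its ratio to chi-miR-29a-3p was 0.152, 0.147 and 0.129 in 1-month libraries 1, 2 and 3. In 12-month libraries 3, 4 and 5 it was 0.199984, 0.332 and 0.227, with 0.282, 0.383 and 0.293 in 24-month libraries 2, 3 and 5. The 1-month libraries were the lowest, and within the later ages 12-month library 4 and 24-month library 3 were highest. The ratio was higher by 0.79 (log2) at 12 months and 1.15 at 24 months (exact permutation test over 3 ages, p = 0.0107, adjusted p = 0.0179). Among 99 other pairs of a goat-named entry and a longer form of it, the median of this difference was 0.03 at 12 months and 0.07 at 24 months, and 7 pairs had a larger difference than miR-29-y at each age. Across those 99 pairs the same 2 libraries also had the highest ratios, with medians 0.25 and 0.32 above each pair's own mean, and the part of this in the miR-29-y values was not tested. Without 12-month library 4 the difference at 12 months was 0.58.

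The goat-named arms of miR-29b were compared in the same way, here without miR-29-x. There were 13.9, 16.5 and 20.8 reads of chi-miR-29b-3p for each of chi-miR-29b-5p in 1-month libraries 1, 2 and 3, then 18.8, 20.1 and 29.7 at 12 months, and 38.0, 22.7 and 23.0 at 24 months. The ages 1 and 12 months overlapped, and 24 months lay above 1 month. The ratio differed by 0.41 (log2) at 12 months and 0.68 at 24 months (exact permutation test over 3 ages, adjusted p = 0.168), which did not pass.

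A further ratio, chosen after its values were seen, set the 5p arms that rose against those that did not pass. Because the members were picked by their change, it is given as a description. chi-miR-29b-5p and chi-miR-29c-5p together were 4.82, 2.11 and 4.59 times chi-miR-29a-5p with miR-29-x in 1-month libraries 1, 2 and 3. They were 12.8, 4.50 and 13.9 times as high in 12-month libraries 3, 4 and 5, and 16.0, 5.65 and 9.98 times in 24-month libraries 2, 3 and 5. The ages 1 and 12 months overlapped through 12-month library 4, and those of 24 months lay above 1 month. On the log2 scale its mean was 1.36 higher at 12 months and 1.42 higher at 24 months. At 12 months it was 1.89 without 12-month library 4 and 0.98 without 1-month library 2.

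**Figure D4:**
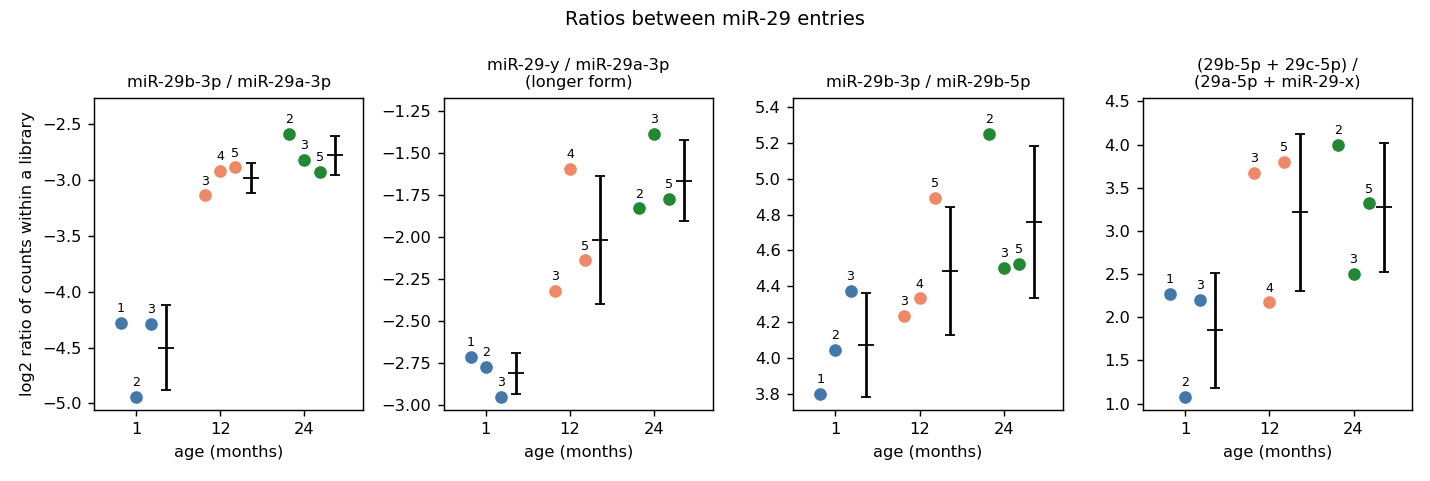
Log2 ratios of counts within each library (y axis, each panel on its own scale) against age in months for 4 pairs of miR-29 entries, with 1 numbered point per library and the mean ± SD of 3 goats beside each group. The 2 ratios on the left are lowest in all 1-month libraries, while the 2 on the right overlap between 1 and 12 months.

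Shares of cell type markers differed with age in the same libraries. The epithelial list (miR-96, miR-141, miR-182, miR-183, miR-200, miR-203, miR-205 and miR-429, 24 entries) took 0.875% to 5.82% of 1-month counts. At 12 months its share was 10.3% to 11.9%, and the 24-month libraries gave 10.7% to 11.8%. The gland list (miR-7, miR-148, miR-216, miR-217 and miR-375, 18 entries) took 1.41% to 8.55%, 14.2% to 16.8% and 16.9% to 17.9%. The leukocyte list (miR-142, miR-146, miR-150, miR-155, miR-223 and miR-342, 22 entries) took 3.73% to 12.7%, 0.604% to 0.712% and 0.477% to 0.617%, and 17, 15 and 14 of its entries had counts in every library of the 3 ages, with 0, 3 and 4 at 0 throughout. At 12 months 5 of 22 tested epithelial entries rose by edgeR, where 5.98% of all entries rose. DESeq2 and limma voom each called 14 higher, and over all 937 entries they called 115 and 98 higher. Of the leukocyte entries 12 of 16 fell, where 13.2% of all entries fell. The 11 tested gland entries went both ways, with 3 higher and 1 lower and a median log2 fold change of 0.25, and chi-miR-148a-3p held the most counts among them. Within 1 month the epithelial share was 5.82%, 0.875% and 3.97% in libraries 1, 2 and 3, and the miR-29 share was 0.167%, 0.161% and 0.201%. With TMM scaling library 2 was lowest for chi-miR-29b-3p, chi-miR-29b-5p and chi-miR-29c-5p, and highest for chi-miR-29a-3p and miR-29-y. The mesenchymal list took 1.66% to 13.6% at 1 month and 6.51% to 9.04% later. The part of cell content in the miR-29 rise was not tested.

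**Figure D5:**
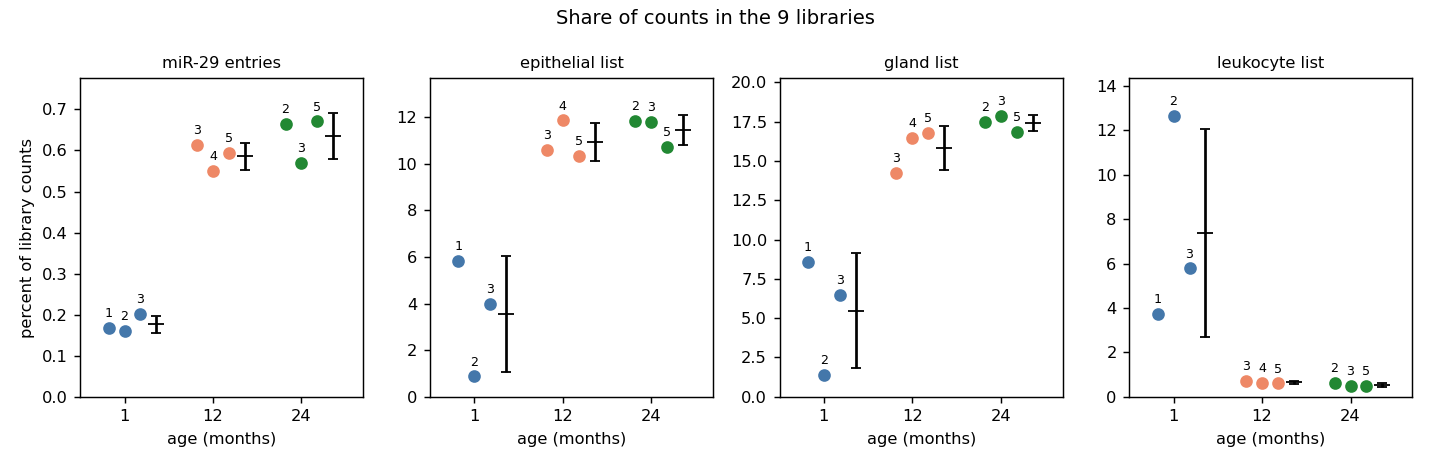
Share of library counts in percent (y axis from 0, each panel on its own scale) for the miR-29 entries and 3 lists of cell markers against age in months, with 1 numbered point per library and the mean ± SD of 3 goats beside each group. In 1-month library 2 the epithelial and gland lists are lowest and the leukocyte list highest. Its miR-29 share is 0.161%, against 0.167% and 0.201% in libraries 1 and 3.

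Other miRNAs tied to extracellular matrix and fibrosis were listed by their role. Of those held to restrain it (miR-24, miR-26, miR-30, miR-101, miR-133, miR-141, miR-200 and miR-429), 10 of 39 tested entries rose at 12 months, where 5.98% of all entries rose, and 0 fell, with a median log2 fold change of 1.06 against −0.017 over all entries. At an unadjusted p under 0.05, 20 rose and 0 fell, and DESeq2 called 19 and limma voom 16 higher and 0 lower. Of all 937 entries, 374 were under that p in either direction, and DESeq2 called 115 and limma voom 98 higher. This list shares miR-141, miR-200 and miR-429 with the epithelial list and miR-133 with a muscle list. miR-101-y, another repressor of matrix genes, rose from 3006 ± 1265 to 12779 ± 2933 CPM (2.09, SE 0.41, edgeR adjusted p = 0.00678). chi-miR-141, which guards the epithelial state, rose by 2.55 (SE 0.47, adjusted p = 0.00497). The most abundant entries of the other numbers did not pass at 12 months: chi-miR-24-3p (0.70, edgeR adjusted p = 0.191), chi-miR-26a-5p (0.05, 0.918), chi-miR-30e-5p (0.24, 0.686), chi-miR-133a-3p (0.95, 0.441), chi-miR-200a (1.89, 0.0695) and chi-miR-429 (0.74, 0.473).

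Of the miRNAs held to promote fibrosis (miR-21, miR-34, miR-155, miR-199 and miR-214), 2 of 22 tested entries fell at 12 months and 0 rose, with a median of −0.41. Over all entries 13.2% fell, so this count is no more than the background. At an unadjusted p under 0.05 the counts were the same, as they were by DESeq2 and limma voom. Of all 937 entries, 374 were under that p in either direction, and DESeq2 called 170 and limma voom 130 lower. chi-miR-155-5p, also a leukocyte marker, fell by 3.47 (SE 0.53, edgeR adjusted p = 0.00233). chi-miR-21-5p, the best known of them, had a value of −0.50 (adjusted p = 0.331), chi-miR-199a-5p of −0.40 (0.529), miR-214-y of −0.62 (0.387) and chi-miR-34c-5p of 0.55 (0.53). At 24 months against 1 month 12 of 39 restraining entries rose, where 8.75% of all entries rose. Of the promoting entries 2 of 22 fell by edgeR and by limma voom, where 17.5% of all entries fell by edgeR. By DESeq2 and at an unadjusted p under 0.05, 6 of 22 fell, and 0 rose by any of these. Over all entries DESeq2 called 38.2% and limma voom 26.5% in either direction, and 399 of 937 were under that p.

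Entries of other families with a like course were found by Pearson's r of log2(CPM + 1) over the 9 libraries, among 498 entries with known names and at least 10 CPM at some age. These values are descriptions over 9 libraries that share their 3 ages, and they carry no test. Closest to chi-miR-29b-3p were miR-1468-x (r = 0.972), chi-miR-30b-3p (0.965), miR-2285-y (0.964), miR-375-y (0.963) and miR-1949-y (0.961). miR-375-y, abundant in secretory epithelium, stood at 8367 ± 225 CPM at 1 month, 23092 ± 5637 CPM at 12 months and 31906 ± 2377 CPM at 24 months (SD, n = 3). Closest to chi-miR-29a-3p were miR-1468-x (0.955), miR-375-y (0.944), miR-1949-y (0.940), miR-2285-y (0.938) and chi-miR-30d-3p (0.937). The lowest r to chi-miR-29b-3p came from miR-3548-y (−0.974), the blood cell marker miR-142-x (−0.973) and chi-miR-20b (−0.970), a relative of miR-17.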

How the data were processed

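The table deposited by the authors holds 1 column of read counts (per the file headers; whole numbers) per library for 2189 mature miRNA entries, with their sequences. Per the submitters' processing notes the tools were FastQC and Bowtie, with no version. Build and miRNA release: not given in the sources used here. Of the entries, 218 share a sequence with another entry, but none of the miR-29 members does. Entries were filtered with filterByExpr (minimum count 10, minimum total 15), which left 937, and fitted with edgeR 4.0.16 in R 4.3.3 (TMM; age as a factor; robust quasi-likelihood F test; residual df 6). Alternatives were DESeq2 1.42.0, limma voom 3.58.1, other scalings and filters, and leaving out each library. Ratios and shares used a pseudocount of 0.5 (ratios) and exact two-sided permutation tests over libraries, adjusted by Benjamini-Hochberg. Standard errors are the log2 fold change over the root of F. Scripts were tested on simulated data. Entries with a mean of at least 10 CPM at some age are given by library. Entries of like pattern are the 5 highest r per reference and the 3 lowest, and of each matrix miRNA the most abundant entry is named. The members and lists were chosen with earlier results of these data known.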

Additional observations from a re-analysis of the deposited data

How the results depend on the processing

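Under other scalings, filters and tools, and with only the libraries of both ages, 5 miR-29 entries passed at 12 and at 24 months against 1 month, and 0 passed between 12 and 24 months. Against 1 month these fits called 12% (no filter) to 30.4% (DESeq2) of all entries at 12 months. At 24 months they called 13.2% to 38.2%, under the same settings. With goat-named entries only, or with the longer form summed into chi-miR-29a-3p, 4 passed, since 1 entry fewer could. Leaving out 1 library gave 3 to 5 entries at 12 months against 1 month, with 3 without 12-month library 5, where chi-miR-29a-3p and chi-miR-29c-5p did not pass, and 5 in each case at 24 months. The share of all entries called at 12 months also varied, from 8.3% without 12-month library 4 to 22.5% without 1-month library 2. It was 13.1% without 12-month library 5. At 24 months against 1 month it ran from 11.5% without 24-month library 3 to 26.4% without 1-month library 2. With the TMM-scaled library size as denominator the family share rose by 1.93 at 12 months and 2.11 at 24 months (log2), against 1.74 and 1.85.

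Same-numbered libraries come from separate goats. The correlations of their deviations from the age means ran from −0.212 to 0.178, and those of differently numbered libraries from −0.327 to 0.285. Same-numbered pairs are too few for these values to decide whether libraries of 1 number share anything. The cause of the changes under the block was not tested. With the replicate block, 0 entries passed at 12 months against 1 month and 0 for any difference between the 3 ages, and 4 passed at 24 months against 1 month. That fit leaves 2 residual degrees of freedom and calls 4 of 937 entries at 12 months. It calls 71 (7.58%) at 24 months against 1 month and 13 for any difference.

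Between 12 and 24 months chi-miR-29a-3p turned to −0.072 with the replicate block and to −0.048 without 12-month library 4. chi-miR-29b-5p turned to −0.049 with library size alone, −0.019 with no filter and −0.022 without 12-month library 4, and the cause was not tested. Its leave-one-out values ran from −0.022 to 0.33, and those of chi-miR-29a-3p from −0.048 to 0.40. Over all entries, 56 of 180 calls at 12 months were higher, against 26 of 181 with library size alone, which moved the median of all entries from −0.017 to −0.20. At 24 months against 1 month 82 entries were called higher and 164 lower, against 46 and 193 with library size alone and 132 and 153 with the upper quartile, which moved that median from −0.065 to −0.36 and to 0.073.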

Other observations

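An entry outside the name rule carries the miR-29 seed at measurable counts. miR-285-y begins with the whole of chi-miR-29b-3p and runs on by 2 bases (tAGCACCAtttgaaatcagttc, seed in capitals). It held 3, 2 and 7 counts in 1-month libraries 1, 2 and 3, then 19, 44 and 59 at 12 months and 79, 65 and 89 at 24 months. The 3 ages did not overlap. It was higher by 3.73 at 12 months (SE 0.59, edgeR adjusted p = 0.0025) and by 4.74 at 24 months (SE 0.61, adjusted p = 0.00132). Read by sequence as a longer form of chi-miR-29b-3p, it is no separate evidence, and the source of its added bases was not checked. Between 12 and 24 months its difference of 1.02 did not pass (edgeR adjusted p = 0.998, 95% interval −0.10 to 2.13). Among all entries 6.08% were higher without overlap in that comparison and 9.82% in either direction. In all, 7 entries of the table share the seed AGCACCA, and the others outside the name rule, miR-998-y and miR-995-y, held 10 and 2 counts over the 9 libraries.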
